A study of Mus musculus with 8 samples.

Results

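Genomic imprinting is the expression of a gene from only the maternal or only the paternal chromosome copy. The 10 imprinted genes described here were Meg3, Rian, Mirg, Dlk1, H19, Plagl1, Peg3, Mest, Grb10 and Cdkn1c, out of 53801 genes in the deposited table. Meg3 and Rian were picked because their counts were lower in YFP-positive libraries, so their values are given as a description and with no test. The other 8 were chosen as imprinted genes to set beside them, with earlier results of these data known. They were tested where their counts allowed it. Counts of 8 of the 10 genes passed the filter on low counts, and Dlk1 and H19 did not.

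The cells were stromal cells negative for CD45 (a leukocyte surface protein) and CD31 (an endothelial one), sorted from ulcers of the small intestine. All mice carried the LTβR-YFP reporter and had received indomethacin, which inhibits cyclooxygenases and damages the small bowel, and no untreated group was analysed here. The groups were 4 YFP-negative and 4 YFP-positive libraries of total RNA, each numbered 1 to 4. The labels give neither the ages of the mice nor whether libraries came from separate animals, and the sources used here do not give how the reporter relates to Ltbr expression.

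Imprinted genes sit in clusters, and a differentially methylated control element marks which parental copy is read. In the Dlk1-Dio3 cluster the maternal copy gives a chain of long non-coding RNAs, Meg3, Rian and Mirg, which host small nucleolar RNAs and microRNAs, while the paternal copy gives the protein-coding Dlk1, Rtl1 and Dio3. Many imprinted genes act on fetal growth and are turned down in most tissues after birth. A count per gene does not separate the parental copies, so nothing here measures imprinting itself.

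The 3 non-coding RNA genes lie on the plus strand of chromosome 12 (GRCm38). Meg3 (ENSMUSG00000021268, a lincRNA) spans positions 109541001 to 109571726, Rian (ENSMUSG00000097451, a processed transcript) spans 109603940 to 109661716 and Mirg (ENSMUSG00000097391, a lincRNA) spans 109729764 to 109749460. Rian starts 62.9 kb and Mirg 188.8 kb after the start of Meg3. Because Meg3 and Rian were low in the same libraries, the sequences at their starts are shown, with 250 bases before and 50 after the RefSeq start. They are from the RefSeq table for GRCm38.p6, at chr12:109540746-109541045 and chr12:109603695-109603994, plus strand, 5′ to 3′. Capitals mark matches on either strand to the cyclic AMP response element, TGACGTCA. They also mark the TATA box, TATAAA. Matches to the CCAAT box, whose letters are its name, are in capitals too.
Meg3: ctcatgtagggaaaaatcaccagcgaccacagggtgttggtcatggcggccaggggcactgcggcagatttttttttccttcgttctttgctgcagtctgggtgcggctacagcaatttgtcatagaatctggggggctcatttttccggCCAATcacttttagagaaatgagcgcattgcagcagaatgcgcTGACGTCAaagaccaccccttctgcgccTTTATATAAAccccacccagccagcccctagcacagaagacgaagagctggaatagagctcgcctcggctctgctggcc
Rian: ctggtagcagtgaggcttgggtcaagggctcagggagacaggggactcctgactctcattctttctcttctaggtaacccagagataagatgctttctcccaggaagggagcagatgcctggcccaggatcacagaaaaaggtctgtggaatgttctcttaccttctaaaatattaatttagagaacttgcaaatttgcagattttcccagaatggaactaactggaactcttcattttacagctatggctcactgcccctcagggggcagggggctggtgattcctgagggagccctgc

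The Meg3 window shown holds the CCAAT box 100 bases and the cyclic AMP response element 57 bases before the start. It also holds the TATA box on both strands in overlapping letters, beginning 29 and 25 bases before the start. The Rian window holds none of the 3 motifs and 0 CpG dinucleotides, against 13 in the Meg3 window shown and a median of 7 over 32851 RefSeq windows of 300 bases. A second RefSeq window of Meg3, at chr12:109545148-109545447, likewise holds none of the motifs, with 1 CpG. Of all the windows, 1.79% hold the cyclic AMP response element, 13.6% the TATA box and 37.4% the CCAAT box. RefSeq windows were found for 8 of the 10 genes, and among their 12 windows the response element was present in 1 of Meg3 and in that of Peg3. The matches describe letters only, and binding was not measured.

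The libraries of replicate number 2 stood apart on the first principal component of all tested genes, which held 35.5% of the variance, at 78.7 and 92.5 against at most -12.4 for the other 6 libraries. Level is given in CPM, the counts of a gene relative to the total of its library, scaled by TMM factors that correct for library composition. Meg3 stood at 190.6, 109.7, 75.5 and 141.5 CPM across YFP-negative replicates 1 to 4 and at 114.0, 103.0, 56.3 and 86.4 CPM across YFP-positive replicates 1 to 4. The means were 129.3 ± 48.9 and 89.9 ± 25.1 CPM (SD, n = 4 each). In 4 of 4 replicate numbers Meg3 was lower in YFP-positive cells, although the groups overlapped, because the libraries of number 1 were high and those of number 3 low in both groups. Its fitted log2 fold change was -0.52 without and -0.50 with the replicate number as a block.

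Rian, the host of a long array of C/D box small nucleolar RNAs, stood at 181.9, 109.4, 62.0 and 119.4 CPM across YFP-negative and at 97.2, 69.3, 47.4 and 71.5 CPM across YFP-positive replicates 1 to 4. The means were 118.2 ± 49.3 and 71.4 ± 20.4 CPM (SD, n = 4 each). The fitted log2 fold change was -0.73 without and -0.67 with the block. As for Meg3, number 1 was highest and number 3 lowest in both groups, and the YFP-positive library was lower in 4 of 4 numbers. Within libraries, Rian held 0.955, 0.997, 0.822 and 0.843 counts per Meg3 count in YFP-negative and 0.853, 0.673, 0.842 and 0.828 in YFP-positive replicates 1 to 4. The lowest of these ratios was in YFP-positive replicate 2, where Meg3 was at 0.939 and Rian at 0.634 of the YFP-negative CPM. In the authors' deposited table the log2 fold changes were -0.501 for Meg3 and -0.680 for Rian.

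Mirg hosts a cluster of microRNAs and was not picked on this contrast. It stood at 33.9, 18.9, 13.2 and 19.03 CPM across YFP-negative and at 21.6, 16.8, 10.04 and 16.5 CPM across YFP-positive replicates 1 to 4. Number 1 was again highest and number 3 lowest in both groups, and in 4 of 4 numbers Mirg was lower in YFP-positive cells, a pattern found for 10.2% of the 15945 genes tested. Its log2 fold change was -0.36 ± 0.15 (SE) with the block, and it did not pass the test (edgeR's quasi-likelihood test, Benjamini-Hochberg adjusted p = 0.372). Across the 8 libraries the log2 CPM of Mirg followed that of Meg3 with a Pearson correlation of 0.96 and that of Rian with 0.95, and Meg3 followed Rian with 0.97. These are descriptions over the same 8 libraries, whose depth and cell make-up the genes share.

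**Figure D1:**
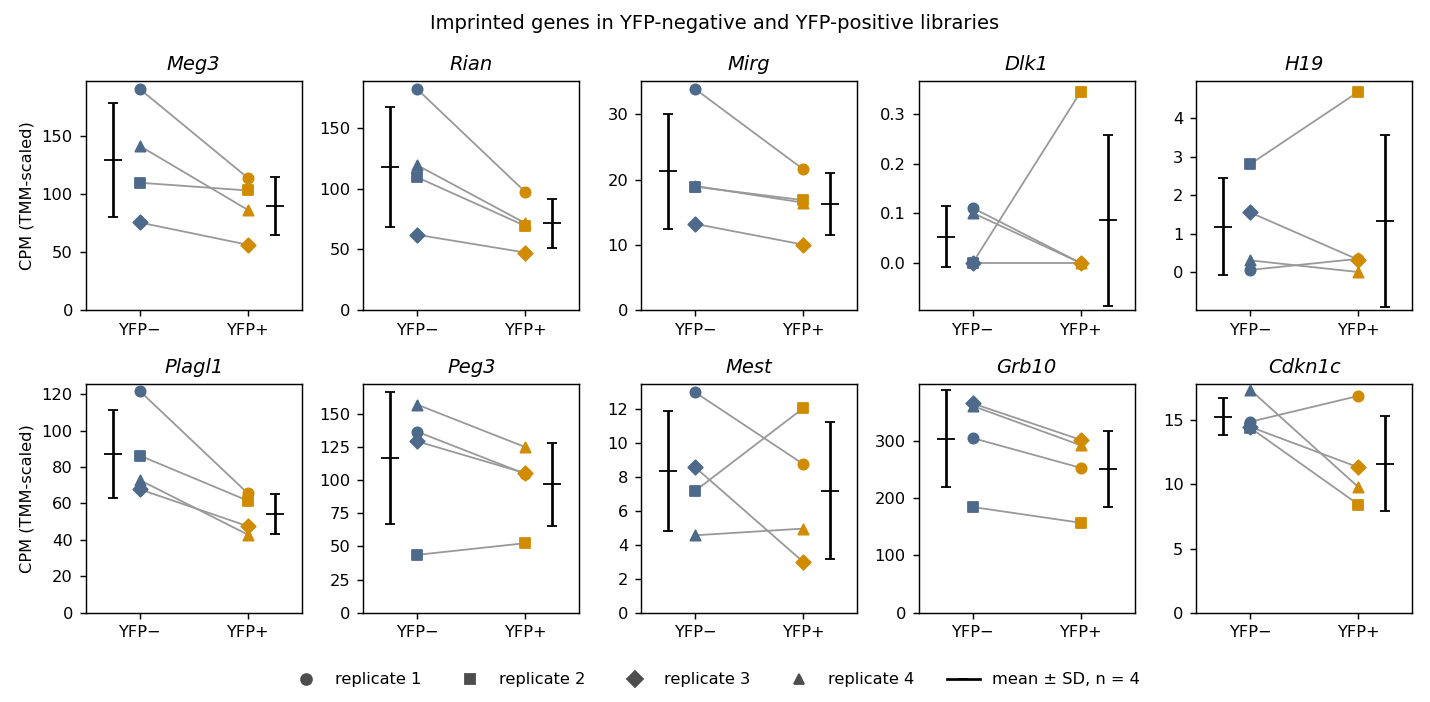
Level of each of the 10 imprinted genes in CPM (vertical axis, linear, a separate scale per gene) in YFP-negative and YFP-positive libraries, with a line joining libraries of equal replicate number and bars for the mean ± SD of 4 libraries. Meg3, Rian and Mirg keep number 1 highest and number 3 lowest in both groups, Plagl1 is the gene whose groups do not overlap, and Dlk1 and H19 lie near 0.

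The short RNA genes of the cluster show how the counts were made. GENCODE M21 annotates 67 microRNA genes between Dlk1 and Dio3. The 20 of them inside Meg3, Rian or Mirg had 0 counts in the 8 libraries, and so did the 13 small nucleolar RNA genes inside Rian, whether or not they touched an exon of the host. Outside the 3 hosts, 35 of 47 microRNA genes and 9 of 10 small nucleolar RNA genes had counts. Over the genome, 0 of 689 microRNA genes in an intron of a counted gene on the same strand had a count, against 2 of 250 in an exon of such a gene, 102 of 743 lying in no other gene and 59 of 314 lying in a gene on the opposite strand. The values of Meg3, Rian and Mirg were therefore read as counts over the whole gene span on one strand, introns included, and the short RNA genes inside them carry no counts of their own.

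The mature microRNAs were not measured by these libraries. The hosts are known for them, so those with a seed (bases 2 to 8, in capitals) shared between a hairpin inside Rian or Mirg and one outside the 3 hosts are shown first, followed by miR-127-3p and miR-433-3p, whose hairpins lie antisense to Rtl1. Sequences are from the RefSeq table for GRCm38.p6, 5′ to 3′.
miR-370-5p (inside Rian): cAGGUCACgucucugcaguu
miR-1193-3p (outside): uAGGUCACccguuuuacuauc
miR-410-5p (inside Mirg): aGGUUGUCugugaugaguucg
miR-494-5p (outside): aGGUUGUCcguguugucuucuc
miR-127-3p (antisense to Rtl1): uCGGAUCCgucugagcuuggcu
miR-433-3p (antisense to Rtl1): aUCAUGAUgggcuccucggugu

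The RefSeq table gives 113 mature names from 61 microRNA genes in the interval, with 104 distinct seeds, 9 of which stand on more than 1 mature sequence. The 39 microRNA genes on the plus strand between the start of Meg3 and the end of Mirg and outside the 3 hosts summed to only 11.2, 2.81, 1.69 and 5.36 CPM across YFP-negative and 8.13, 4.49, 3.52 and 2.93 CPM across YFP-positive replicates 1 to 4. In 2 of 4 numbers the YFP-positive sum was the lower. The difference of log2(CPM + 1) was 0.04, with a two-sided exact permutation p of 0.914 before and after adjustment over 3 such tests. The 10 small nucleolar RNA genes outside the hosts summed to 1.25 ± 0.79 and 1.14 ± 0.91 CPM (SD, n = 4 each; exact permutation p = 0.857, adjusted 0.914). Both permutation tests ignored the replicate number. The sums rest on 854 and 202 counts over all libraries. The microRNA sums, at 5.28 ± 4.26 and 4.77 ± 2.33 CPM (SD, n = 4 each), varied far more within the groups than between them, and these tests do not show that the sums were equal.

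Between Rian and Mirg lie further plus-strand transcripts, named here for their position after their values were seen. Gm37899, at 109668869 to 109677585 on chromosome 12, stood at 23.1, 12.8, 7.25 and 9.87 CPM across YFP-negative and 10.4, 10.6, 3.04 and 6.02 CPM across YFP-positive replicates 1 to 4. It was lower in 4 of 4 numbers and its log2 fold change of -0.85 ± 0.22 (SE) missed the threshold with the block (edgeR adjusted p = 0.0568). B830012L14Rik, at 109695586 to 109702587, had a log2 fold change of 0.21 ± 0.45 (SE; edgeR adjusted p = 0.945) at 1.37 to 4.73 CPM. Rtl1, the retrotransposon-derived gene read from the paternal copy on the minus strand, lay at 2.49 to 6.73 CPM with a log2 fold change of -0.64 ± 0.38 (SE; edgeR adjusted p = 0.611). Dio3, the deiodinase gene that inactivates thyroid hormone, lay at 0.345 to 2.60 CPM (edgeR adjusted p = 0.904). Begain, Wdr25 and Wars, the neighbours listed on the Dlk1 side, had log2 fold changes of -0.10, -0.12 and 0.08 and adjusted p-values of 0.966, 0.939 and 0.895 (edgeR with the block).

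**Figure D2:**
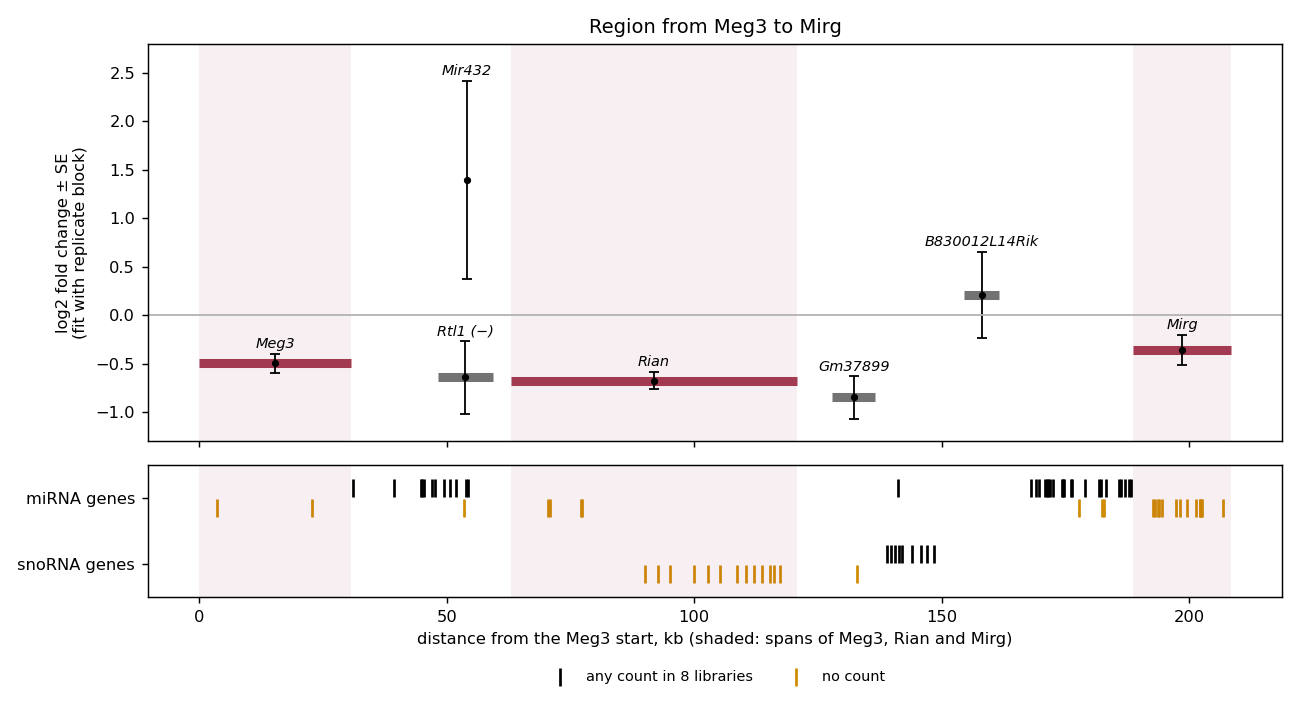
Upper panel: log2 fold change ± SE (vertical axis) of each tested gene from Meg3 to Mirg, from the fit with the replicate block. Meg3 and Rian were picked for their fall, so their SEs are no support for it. The horizontal axis is the distance from the Meg3 start in kb. Bars are red for Meg3, Rian and Mirg and grey for other genes, with (−) for the minus strand. Lower panel: plus-strand microRNA and small nucleolar RNA genes with any count (black) or none (orange); the 20 microRNA genes and 13 small nucleolar RNA genes inside the shaded spans had none.

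Dlk1, the paternally expressed membrane protein of the Delta-Notch family that marks preadipocytes, was close to undetected. It had 2, 0, 0 and 2 counts in YFP-negative and 0, 5, 0 and 0 counts in YFP-positive replicates 1 to 4. With 4 counts in the one group and 5 in the other, no difference could be measured.

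H19, the maternally expressed non-coding RNA that hosts miR-675, lies on the minus strand of chromosome 7 at 142575529 to 142578143. It had 1, 33, 46 and 6 counts in YFP-negative and 10, 68, 8 and 0 counts in YFP-positive replicates 1 to 4, or 86 in each group. The highest CPM was in replicate 2 of both groups, at 2.81 and 4.70. The difference of log2(CPM + 1) was -0.10, with a two-sided exact permutation p of 0.886 (0.914 adjusted over 3 tests). This test ignored the replicate number, and the smallest p that 4 against 4 libraries allow is 0.0286. Igf2, the growth factor gene beside H19, is listed at 0 in every library. Only 3 of its 16051 bases are free of another gene on its strand, so its level cannot be read from these counts.

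Plagl1 encodes a zinc finger transcription factor that is read from the paternal copy and restrains cell division; it lies on the plus strand of chromosome 10 at 13060504 to 13131694 (ENSMUSG00000019817). It stood at 121.8, 86.3, 67.8 and 72.9 CPM across YFP-negative and at 65.6, 61.5, 47.5 and 42.9 CPM across YFP-positive replicates 1 to 4. Every YFP-positive library lay below every YFP-negative library, which held for 0.859% of the genes tested. The means were 87.2 ± 24.3 and 54.4 ± 10.9 CPM (SD, n = 4 each). With the block, Plagl1 fell by 0.67 ± 0.09 (SE) on the log2 scale, a ratio of 0.630 with a 95% interval of 0.552 to 0.718 (edgeR adjusted p = 6.5e-04). Without the block no gene passed (0% of genes tested, either direction), and the adjusted p of Plagl1 was 1.00 (edgeR).

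The call of Plagl1 held in the 11 other settings of the blocked fit (edgeR, DESeq2 and limma voom), with a highest adjusted p of 0.00797 in edgeR without replicate 1. Among the 6 tested genes that were not picked on the contrast, Plagl1 and Grb10 were lower and none was higher with the block. Over all genes tested 1.59% were lower and 0.696% higher by the same rule. The 6 were chosen with earlier results of these data known, so the count is a description and not an independent test. Without the block 0 of the 15945 genes passed in edgeR, with 156 higher and 169 lower at an unadjusted p of 0.05 or below, and DESeq2 called 0 higher and 2 lower. Neighbours of Plagl1 on the list of its region did not pass: 3 other genes had log2 fold changes between 0.07 and 0.09.

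Peg3, a paternally expressed zinc finger gene on chromosome 7 (6703892 to 6730431, minus strand), is known as a marker of stromal and tissue stem cells. It stood at 136.5, 43.7, 129.3 and 157.0 CPM across YFP-negative and 104.7, 52.5, 105.3 and 124.9 CPM across YFP-positive replicates 1 to 4. Both libraries of number 2 were low, and number 2 was the only number in which the YFP-positive library was the higher. The log2 fold change was -0.20 ± 0.10 (SE) with the block and did not pass (edgeR adjusted p = 0.460). Without replicate 2 it was -0.34 and passed (edgeR adjusted p = 0.0261); over all 11 other blocked settings the adjusted p ran up to 0.850.

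Mest, a paternally expressed hydrolase gene used as a marker of growing mesenchyme and fat, lies on chromosome 6 at 30723547 to 30748465, plus strand. It was low, at 13.0, 7.16, 8.57 and 4.55 CPM across YFP-negative and 8.75, 12.02, 3.00 and 4.95 CPM across YFP-positive replicates 1 to 4. The groups overlapped and 2 of 4 numbers were lower. The log2 fold change was -0.31 ± 0.32 (SE; edgeR with the block, adjusted p = 0.849), with a 95% interval of -0.99 to 0.38, and without replicate 3 it was 0.09.

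Grb10 encodes an adaptor that dampens insulin and insulin-like growth factor receptor signalling, read from the maternal copy in most tissues. It lies on the minus strand of chromosome 11 at 11930508 to 12038683 (ENSMUSG00000020176). It stood at 304.8, 184.5, 365.3 and 360.9 CPM across YFP-negative and at 252.8, 157.0, 301.7 and 292.1 CPM across YFP-positive replicates 1 to 4. The groups overlapped, since number 2 was low in both, yet the ratio of YFP-positive to YFP-negative CPM was 0.83, 0.85, 0.83 and 0.81 in numbers 1 to 4.

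With the block, Grb10 fell by 0.27 ± 0.06 (SE) on the log2 scale (edgeR adjusted p = 0.0268). Without the block its adjusted p was 1.00 (edgeR). The call was lost with library sizes alone (-0.18, adjusted p = 0.190) and without replicates 1, 3 and 4, where the log2 fold change was -0.27, -0.27 and -0.26 (edgeR adjusted p = 0.0877, 0.159 and 0.130). In the authors' deposited table the adjusted p was 0.00111 for Grb10 and 2.7e-07 for Plagl1; a DESeq2 fit with the block gave adjusted p-values within 0.001 of that table for all 16502 genes that have one.

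Cdkn1c encodes the cyclin-dependent kinase inhibitor p57, read from the maternal copy, and lies on chromosome 7 at 143458339 to 143461050, minus strand. It stood at 14.9, 14.4, 14.5 and 17.4 CPM across YFP-negative and at 16.9, 8.42, 11.3 and 9.78 CPM across YFP-positive replicates 1 to 4. YFP-positive replicate 1 was the only library of its group within the YFP-negative range. The log2 fold change was -0.44 ± 0.20 (SE) with the block and did not pass (edgeR adjusted p = 0.434; unadjusted p = 0.0452). Of the other 5 tested cyclin-dependent kinase inhibitor genes, 0 passed in either direction, with a median log2 fold change of 0.11.

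**Figure D3:**
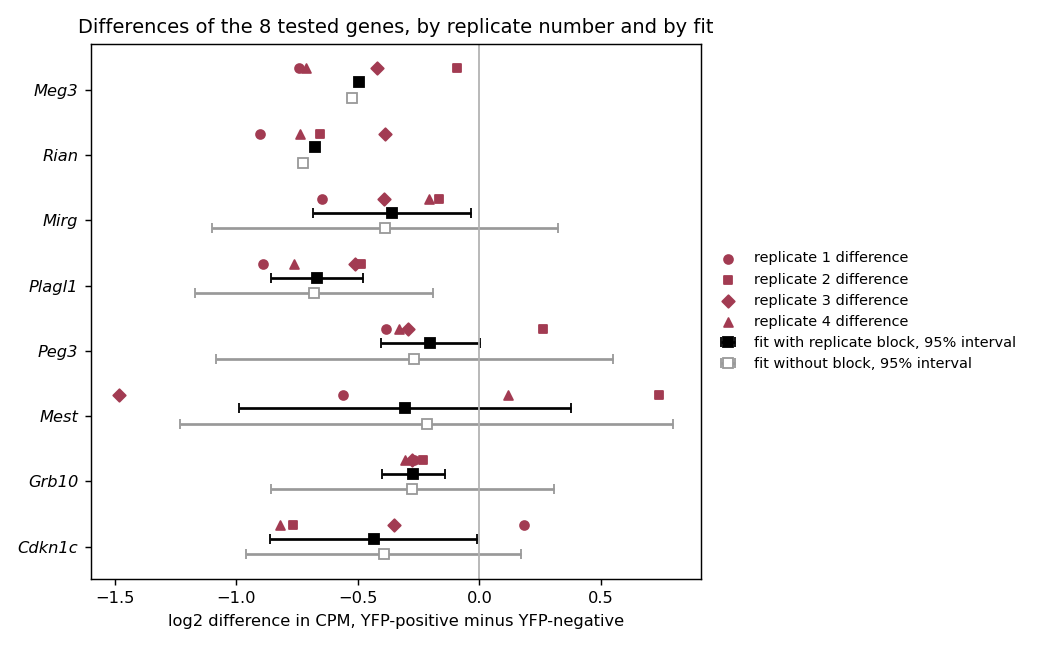
Log2 difference in CPM between YFP-positive and YFP-negative libraries (horizontal axis) for the 8 tested genes: red points are the 4 replicate numbers, black squares the fit with the replicate block and open squares the fit without it, with 95% intervals except for Meg3 and Rian, which were picked on this contrast. The 4 Grb10 differences lie within -0.30 to -0.23, whereas those of Mest run from -1.49 to 0.74.

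The replicate number held a larger share of the variance than the YFP group, except for Plagl1 and Cdkn1c. The number has more levels than the group, which raises its share even where neither matters. The shares therefore do not show which of them moved a gene more. The YFP group held 23.6% for Meg3 and 33.9% for Rian. Of the variance of log2 CPM, the replicate number held 69.7% for Meg3, 63.5% for Rian, 82.3% for Mirg, 93.5% for Peg3, 89.1% for Grb10 and 57.2% for Mest. It held 39.8% for Plagl1 and 27.8% for Cdkn1c, where the YFP group held 56.4% and 39.3%. The genes followed different numbers. Meg3, Rian and Mirg were 2.26, 2.45 and 2.34 times as high in number 1 as in number 3. Peg3 and Grb10 were lowest in number 2, below their highest number by 2.92 and 1.95 times. Peg3 and Grb10 lie on different chromosomes and correlated at 0.93 over the 8 libraries, whereas Meg3 correlated at 0.11 with Peg3, -0.05 with Grb10 and 0.80 with Plagl1.

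**Figure D4:**
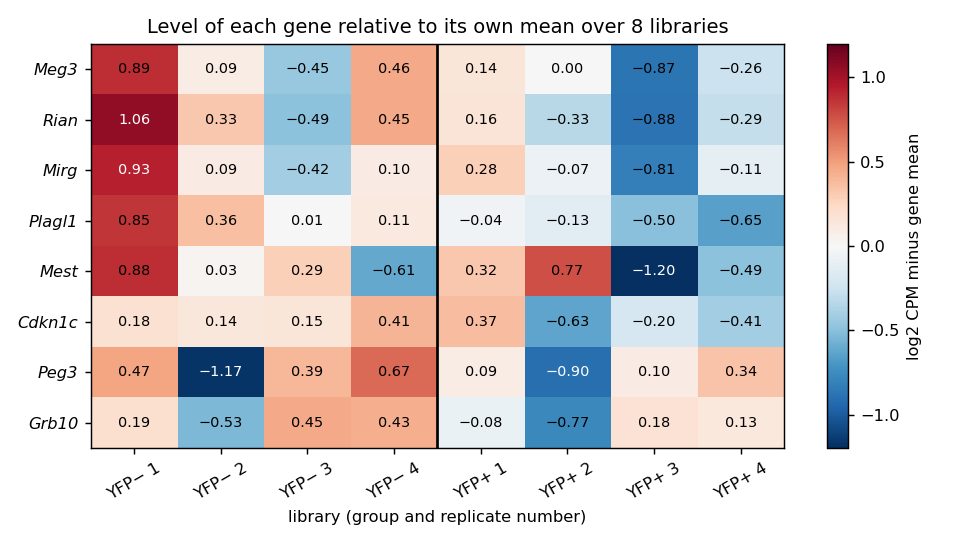
Log2 CPM of the 8 tested genes (rows) in the 8 libraries (columns), as the difference from each gene's own mean (colour and printed value). Meg3, Rian and Mirg share their high library, YFP-negative replicate 1 (0.89, 1.06 and 0.93), and Peg3 and Grb10 share low values in both libraries of number 2.

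Levels of different genes were compared per kb of the span on which a read could be counted. In YFP-negative cells the order of mean CPM per kb of span was Cdkn1c at 5.63 ± 0.52, Peg3 at 4.39 ± 1.88, Meg3 at 4.26 ± 1.61, Grb10 at 2.81 ± 0.78, Rian at 2.17 ± 0.91, Plagl1 at 1.22 ± 0.34 and Mirg at 1.14 ± 0.48. H19 at 0.47 ± 0.50, Mest at 0.34 ± 0.14 and Dlk1 at 0.01 ± 0.01 followed (SD, n = 4). Each neighbouring pair overlapped in its range over libraries apart from Mest and Dlk1. In YFP-positive cells the order was the same but for Mirg at 0.87 ± 0.25 and Plagl1 at 0.76 ± 0.15, which changed places. The order depends on the length used. Per kb of exon, Grb10 was first at 33.4 ± 9.3 and 27.6 ± 7.3 CPM per kb in YFP-negative and YFP-positive cells, with no overlap with the next gene.

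By a rule of likeness, the genes outside the 10 that followed Meg3 most closely were Gpc3, Xylt1, Has1, Fzd4 and Myoz3. Their Pearson correlations with the log2 CPM of Meg3 over the 8 libraries were 0.98, 0.97, 0.97, 0.95 and 0.95, among 10534 tested genes with a mean of at least 5 CPM. Rian ranked at 4 and Mirg at 5 in the same order, Plagl1 stood at rank 144, and 95% of the genes lay below 0.65. The correlations are a description: the 8 libraries share their groups, replicate numbers and depth among all genes.

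Other imprinted genes were taken from lists of maternally and paternally expressed genes. Of 44 such genes beyond the 10, 31 were tested, 13 maternally and 18 paternally expressed. None passed in either direction with the block (edgeR), where 1.59% of all genes tested were lower and 0.696% higher. At these shares few calls would fall among 31 genes in any case. Some genes that were not tested had no base free of another gene on their strand, so their level cannot be read. The median log2 fold changes of the 13 and the 18 tested genes were -0.07 and -0.21, beside 0.005 over all genes tested. The lowest adjusted p-values belonged to Airn, the non-coding RNA antisense to Igf2r, and Ppp1r9a, the neurabin gene; both are named after their values were seen. Airn had a log2 fold change of -0.33 ± 0.08 (SE; edgeR adjusted p = 0.0609) and Ppp1r9a of -0.53 ± 0.14 (SE; edgeR adjusted p = 0.0630), each lower in 4 of 4 numbers. Of the 20 factors known to maintain imprints, such as Zfp57, Trim28 and Dnmt1, 19 were tested and 0 passed, with a median of -0.02.

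Partners and neighbours of the 10 genes were taken from further lists. In the H19-Igf2 and Kcnq1 region, 6 other genes were tested and Cd81 was lower, at 49.8 ± 15.9 CPM in the YFP-negative and 25 ± 4.84 CPM in the YFP-positive group (SD, n = 4 each) and a log2 fold change of -0.96 ± 0.11 (SE; edgeR adjusted p = 2.0e-04); none of the 2 tested neighbours each of Peg3, Mest and Grb10 passed (edgeR with the block). Of 13 tested insulin-like growth factor and Delta-Notch partners, Igf2bp2, an RNA-binding protein of the Igf2 messenger, was lower and none was higher. Its log2 fold change was -0.38 ± 0.09 (SE; edgeR adjusted p = 0.0422). Of 10 other long non-coding RNAs of the nucleus, such as Malat1 and Neat1, 0 passed, with a median log2 fold change of -0.14. Both Cd81 and Igf2bp2 were named after their values were seen, and Cd81 is also on the trophocyte marker list.

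**Figure D5:**
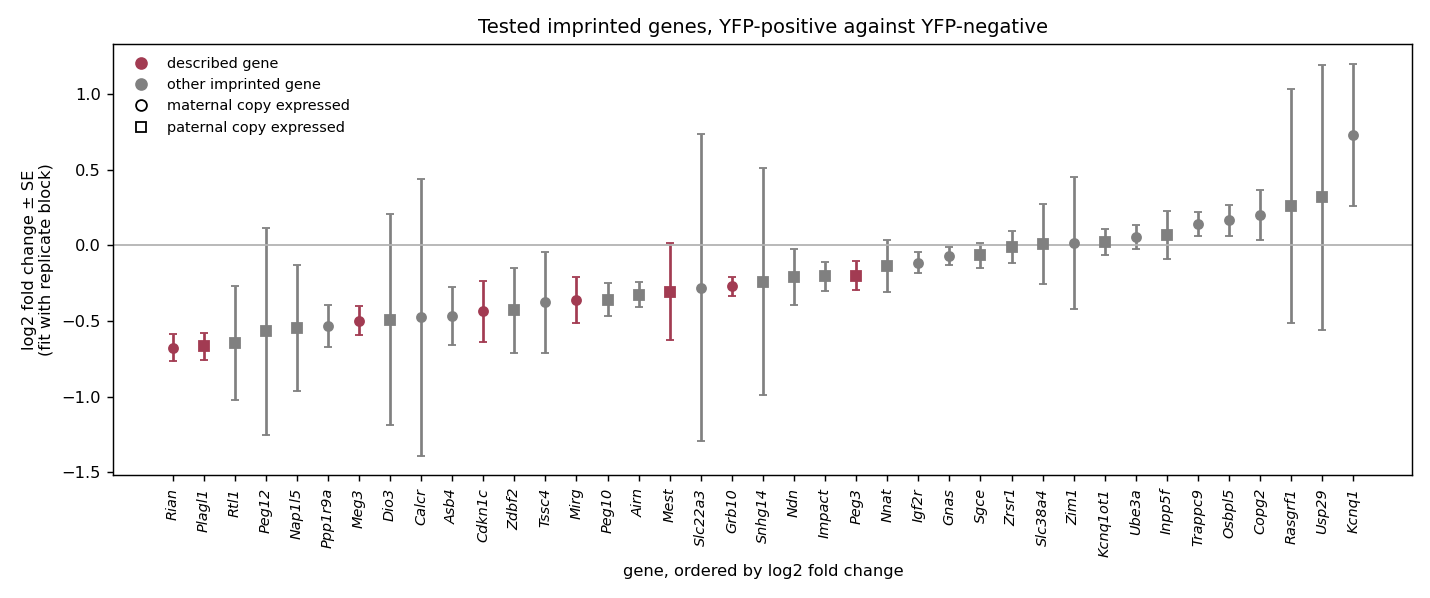
Log2 fold change ± SE from the fit with the replicate block (vertical axis) of every tested imprinted gene, ordered along the horizontal axis, with the described genes in red, other imprinted genes in grey, circles for genes read from the maternal copy and squares for those read from the paternal copy. The 8 described genes all lie below 0. Meg3 and Rian were picked for it, so their SEs are no support, and the other 6 were chosen with earlier results known. Of the 31 other imprinted genes, 7 of 13 maternally and 13 of 18 paternally expressed ones lie below 0. Over all genes tested, 49.0% lie below 0.

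Library facts stood beside these values as follows. Total counts were 12481608 to 29385718 per library. Fibroblast genes were abundant in all libraries (Col3a1 at 6073 to 22823 CPM), while Ptprc, which encodes CD45, was at 0.877 to 12.2 CPM and Pecam1, which encodes CD31, at 11.1 to 46.9 CPM. Mitochondrially encoded genes took 7.71% to 12.4% of counts. Without the libraries of number 2 the blocked log2 fold changes were -0.63 for Meg3, -0.68 for Rian, -0.42 for Mirg, -0.72 for Plagl1, -0.28 for Grb10, -0.33 for Cdkn1c and -0.65 for Mest.

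Markers of fibroblast types differed between the groups as well. The 12 adventitial fibroblast and trophocyte markers, led by C3, summed to 13901 to 19010 CPM across YFP-negative and 8740 to 12724 CPM across YFP-positive libraries, with no overlap. Of these, 8 were lower and 0 higher with the block. The log2 of the sum correlated at 0.82 with log2 CPM of Meg3 over the 8 libraries. C3 averaged 10726 CPM, so the sum mostly follows this gene. The sums of the other lists, immediate early genes included, correlated with Meg3 at -0.68 to 0.79, the highest being the enteric neuron sum. The 10 pan-fibroblast markers summed to 27497 to 53248 and 22768 to 36600 CPM, with 5 lower and 0 higher and a lower sum in 4 of 4 numbers. None of the markers on either list was at 0. The 12 subepithelial fibroblast markers, led by Pdgfra, summed to 2890 to 3680 and 3076 to 4419 CPM with 6 higher and 0 lower and a higher sum in 4 of 4 numbers, and Foxl1 and Foxf1 were at 0 in all libraries. Their spans lie wholly inside another gene on the same strand, so their zeros say nothing of their level. The part of fibroblast types in the values of Meg3, Rian, Plagl1 and Grb10 was not tested, and in bulk libraries fewer cells of a type and less RNA per cell cannot be told apart.

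The summed ranges of the remaining lists, over the markers reported, overlapped between the groups. By replicate number, the smooth muscle and leukocyte sums were higher and the pericyte, enteric glia and immediate early sums lower in YFP-positive libraries in 4 of 4 numbers. The 8 pericyte markers, led by Rgs5, summed to 1374 to 1759 and 1210 to 1503 CPM, with 1 higher and 1 lower. The lower one was Rgs5, which at a mean of 1013 CPM made up most of the sum. Of the 7 tested pericyte markers, 3 had a log2 fold change below 0, and the median was 0.15. The 9 smooth muscle markers, led by Myh11, summed to 574 to 914 and 666 to 1299 CPM, with 3 higher. The 7 enteric glia markers reported, led by Cdh19, summed to 4.66 to 30.3 CPM across YFP-negative and 1.48 to 5.25 CPM across YFP-positive libraries. Only 4 of them were tested and none was called, with a median log2 fold change of -2.27. The log2 of their sum correlated at 0.46 with log2 CPM of Meg3. YFP-negative replicate 1, the library highest in Meg3, Rian, Mirg, Plagl1 and Mest, had the highest sum. Without that library the unblocked log2 fold change was -0.28 for Meg3, -0.44 for Rian, -0.07 for Mirg, -0.48 for Plagl1 and 0.08 for Mest. With it, Mirg was at -0.39 and Mest at -0.22. Leaving out that library alone kept YFP-positive replicate 1 without its partner by number. With both libraries of number 1 left out, the blocked values were -0.41 for Meg3, -0.59 for Rian, -0.26 for Mirg, -0.59 for Plagl1 and -0.20 for Mest. The 10 epithelial markers, led by Krt8, summed to 2.26 to 22.0 and 2.76 to 119 CPM, and the 9 neuron markers to 3.27 to 6.63 and 2.02 to 4.97 CPM. Endothelial, leukocyte, mesothelial and interstitial cell of Cajal markers, led by Pecam1, Lyz2, Krt19 and Etv1, overlapped between groups, with none called. The leukocyte sums ran from 11.4 to 22.1 and from 15.8 to 45.2 CPM. Tubb3 of the neuron and Itgam of the leukocyte markers were at 0 in all libraries. Those zeros alone do not show absence, since a gene lying wholly inside another on its strand also reads 0. The 10 immediate early genes, led by Egr1, summed to 7826 to 16231 and 4398 to 13276 CPM, with 2 lower and 0 higher. The part of these cell types and genes was not tested.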

How the data were processed

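Total RNA of 4 YFP-positive and 4 YFP-negative libraries was sequenced with a stranded low-input Takara kit on a NextSeq, per the labels' protocols. The submitters' processing notes name the build GRCm38 and, in no order, featureCounts 2.0.1, STAR 2.7.3a, DESeq2 and cutadapt 3.4. Neither annotation release nor strand setting is given in those notes. The deposited table holds whole-number counts per gene and the authors' log2 fold changes and adjusted p-values, per the file headers. Its 8 columns of normalised values per library were not used here.

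Counts were tested with edgeR 4.0.16 (R 4.3.3): filterByExpr by group, TMM factors and a robust quasi-likelihood fit with group as the term. Tests were two-sided, with Benjamini-Hochberg adjustment over 15945 genes and a threshold of 0.05. Scripts were tested on simulated data. Titles of the samples gave groups and replicate numbers. Deviations from group means correlated at 0.233, 0.487, 0.376 and 0.376 between libraries of equal number, and at most at 0.0456 between different numbers. Deviations in a group sum to 0, so positive values for equal numbers lower those for different numbers. The latter are no separate evidence of pairing. Equal numbers were thus treated as pairs on the evidence of the data, not the labels. The deposited adjusted p-values were matched within 0.001 by a DESeq2 fit with this block. Blocked values stand beside each call they change. Since separate animals are not stated, a p-value here measures only the spread of these samples, which may be technical. A count of 1 CPM was about 12.5 counts in the smallest library.

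The genes and lists were chosen with earlier results of these data known. The naming rule took the 10 genes, tested neighbours in their regions, Igf2, up to 4 called genes in each direction from the imprinted and maintenance lists, the 5 genes most like Meg3, and the most abundant gene of each marker list. A further enteric glia marker on the list is not reported here and is left out of that list's sum and count, so the sum is lower than over the whole list. Alternatives were DESeq2 1.42.0, limma 3.58.1 voom, RLE factors, library sizes alone, no filter or a stricter one, mitochondrial genes left out, the block, and libraries left out in turn; those applied to the blocked fit other than leaving out numbers were chosen after seeing the data. Coordinates, spans and exons are from GENCODE M21 (GRCm38), which matched 53620 of the 53801 identifiers; sequences are from RefSeq (GRCm38.p6).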

Additional observations from a re-analysis of the deposited data

Results flagged for a closer look

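In 4 of 32 groups of 4 libraries examined, 1 library lay far from the other 3. The groups were the 10 genes and the tested genes between Dlk1 and Dio3, in each YFP group. Chance gives about 1 in 20 only for independent, normally distributed values. Genes here share libraries and some lie near 0, so 4 of 32 is not shown to be an excess. Dlk1 was at 0.345 CPM in YFP-positive replicate 2 and at 0 in the other 3 libraries, which rests on 5 counts. H19 was at 4.70 CPM in YFP-positive replicate 2, where the nearest library was at 0.344 CPM. Cdkn1c was at 17.4 CPM in YFP-negative replicate 4, with the nearest library at 14.9 CPM. Mir432, between Meg3 and Rian, was at 1.79 CPM in YFP-positive replicate 1, with the nearest at 0.691 CPM.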

How the results depend on the processing

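The number of genes called depended on the block: edgeR without it called 0 higher and 0 lower, and with the replicate block 111 higher and 253 lower. DESeq2 called 0 and 2 without and 155 and 341 with the block, and library sizes alone with the block called 212 and 153. With the block, library sizes alone shifted the median log2 fold change of all genes to 0.09. Plagl1 went from no call to a call under the replicate block (-0.67), DESeq2 with the block (-0.67) and library sizes alone with the block (-0.58), and Grb10 under the first 2 of these (-0.27 and -0.28). Without 1 replicate number the blocked fit called 38 to 130 higher and 119 to 296 lower, and Grb10 ranged from -0.28 to -0.26 and Peg3 from -0.34 to -0.14. The direction of Mest turned without YFP-negative replicate 1 (0.080), without YFP-positive replicate 3 (0.05) and, with the block, without replicate 3 (0.087); the cause was not tested. Over the libraries left out in turn without the block, Mest ranged from -0.58 to 0.080 and, with the block, from -0.65 to 0.087; Rian ranged from -0.94 to -0.44. In the blocked fit, no filter on low counts called 253 higher and 420 lower, and limma voom 205 higher. Meg3, Rian, Mirg, Plagl1, Peg3, Cdkn1c and Grb10 kept a negative log2 fold change in every setting run, with and without the block, although Mirg reached -0.07 without YFP-negative replicate 1. Depth limits Dlk1 and H19, which had 9 and 172 counts in all.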
